A study of Mus musculus with 11 samples.

Results

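Wild-type mouse embryonic fibroblasts (MEFs) were compared with wild-type mouse embryonic stem cells (mESCs), using the RNA sequencing libraries labelled Atxn7l3+/+ only. These were 3 MEF and 2 mESC libraries, 5 of the 11 libraries of the series. The other 6 libraries, 3 of each cell type, carried a deletion of Atxn7l3, a subunit of the deubiquitylation module that removes ubiquitin from histone H2B, and served here only as a second set for the same cell type contrast. All cells had the strain background DBA/2 x C57BL/6 in common. The mESC lines came from blastocysts, were kept for 2 passages on feeder cells and then without feeders, with leukaemia inhibitory factor (LIF), serum and the inhibitors PD0325901, which blocks MEK, and CH99021, which blocks GSK3. The MEFs were grown from E10.5 embryos, after head and gut had been taken off, in DMEM with serum, so that each culture was a primary mixture of the remaining embryonic cells and not a clone. Cell type, stage, medium and data table changed together in this comparison and cannot be told apart.

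Embryonic stem cells keep the identity of the inner cell mass of the blastocyst. Transcription factors of the pluripotency network activate each other's genes, the cells adhere through E-cadherin like an epithelium, and LIF and GSK3 inhibition sustain this state while MEK inhibition suppresses the signals that end it. Fibroblasts are mesenchymal cells that secrete collagen and other matrix proteins, pull on that matrix through actin and myosin, and keep in culture a record of their body position in the HOX genes they express.

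The libraries held 34515342 to 49602605 counted reads. Levels are given as CPM, read counts brought to a common library size by TMM scaling over the 5 libraries, and 3 counts in a library, taken as the floor, corresponded to 0.058 to 0.094 CPM. Spearman correlations of CPM across genes were 0.986 between the mESC libraries, 0.934 to 0.970 among the MEF libraries and 0.727 to 0.747 between the cell types. The tables shared 26398 genes. Another 5120 genes were listed in the mESC table only and 3052 in the MEF table only, and since these genes had no value for the other cell type they were not tested. The wild-type groups were not uniform in X and Y chromosome genes: Xist, the RNA that silences one X chromosome, stood at 336 CPM in MEF library 3 and at 0.163 to 23.2 CPM in the other 4 libraries, whereas the Y-linked gene Ddx3y stood at 0.244 CPM in MEF library 3 and at 66.6 to 198 CPM in the others. Neither gene nor the other 3 Y-linked genes examined were called between the cell types.

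Of 18373 genes tested, 4482 (24.4%) were higher in MEFs and 4213 (22.9%) were higher in mESCs at an adjusted p of 0.05 or less and a change of at least 2-fold. Every adjusted p given here comes from the quasi-likelihood test of edgeR, adjusted over all genes tested by the method of Benjamini and Hochberg. At least 8-fold changes were called in 2361 genes (12.9%) in favour of MEFs and in 1764 genes (9.6%) in favour of mESCs. The median log2 difference, MEF over mESC, was 0.02 over all genes. In 13500 genes (73.5%) the values of the cell types did not overlap, so that lack of overlap in a single gene was the usual case. Without mESC library 1, 2265 genes were higher in MEFs and 2278 in mESCs, and without mESC library 2 the counts were 1844 and 1914. With bulk RNA, a lower level in a culture cannot be told apart from fewer cells that express the gene.

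**Figure D1:**
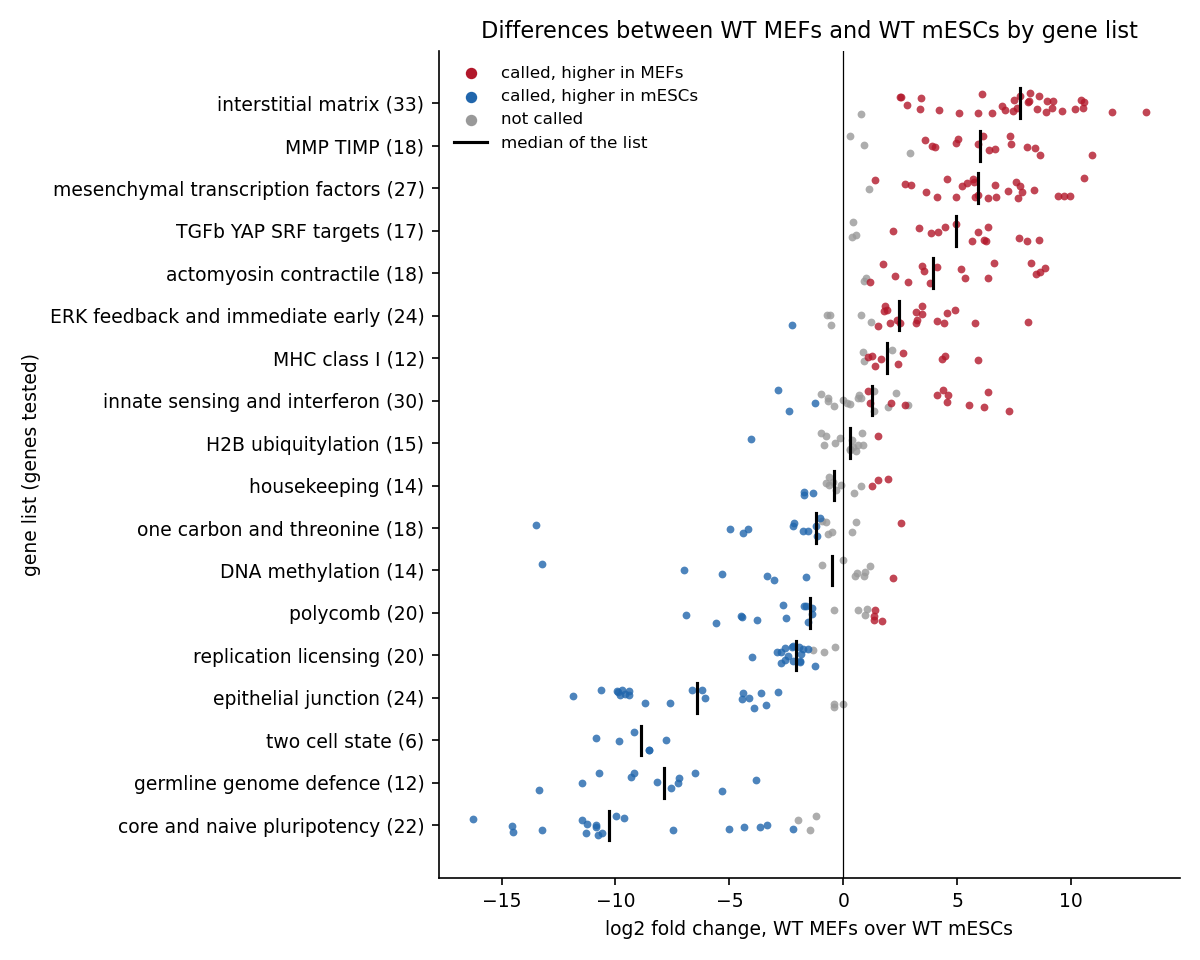
Log2 difference (MEF over mESC, horizontal axis) of every tested gene in 18 gene lists, 1 point a gene, coloured red where called higher in MEFs, blue where called higher in mESCs and grey otherwise, with the list median as a bar. Every called gene of the pluripotency, germline, 2-cell, epithelial and replication lists lies on the mESC side, and every called gene of the matrix, MMP and TIMP, mesenchymal factor, TGF-beta and contractile lists on the MEF side.

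The core and naive pluripotency genes were the clearest mark of the mESCs. Of 28 genes in the list 22 could be tested, and 19 of them were higher in mESCs, 18 by at least 8-fold, with none higher in MEFs and a median log2 difference of -10.3. Nanog, a homeobox factor of the naive network, measured 704 and 903 CPM in the mESC libraries and 1.06, 0.596 and 0.683 CPM in the MEF libraries. Both mESC values lay far above all MEF values, a 1030-fold difference (log2 difference -9.99 ± 0.42 SE, adjusted p = 0.000161). Esrrb, an orphan nuclear receptor that works beside it, measured 516 and 621 CPM in mESCs against 0.653, 0.0314 and 0.341 CPM in MEFs (-10.61 ± 0.87, adjusted p = 0.000581). Dppa5a, an RNA-binding protein of pluripotent cells, was at 823 and 932 CPM in mESCs and had a single read over the 3 MEF libraries. This gave a ratio of 106700 with a 95% counting interval from 19150 to 4214000, the largest change of the list (-16.27 ± 0.65, adjusted p = 0.000161).

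Sox2, which binds DNA together with OCT4, differed much less. Its level was 228 and 276 CPM in mESCs and 47.9, 4.46 and 21.0 CPM in MEFs, a 10.3-fold difference without overlap (-3.37 ± 0.84, adjusted p = 0.0169). Without mESC library 1, mESC library 2 or MEF library 3 its adjusted p was 0.0553, 0.0725 and 0.062. The highest MEF library, MEF library 1, stood 10.7-fold above the lowest. Among tested members that were not called, named after their values were seen, the Kruppel-like factor gene Klf2 stood at 66.3 and 91.3 CPM against 6.33, 62.1 and 34.9 CPM, and the zinc finger gene Sall1 at 47.0 and 94.1 CPM against 38.1, 4.93 and 9.87 CPM. The ratio of the highest to the lowest MEF library was 9.81 for Klf2 and 7.72 for Sall1, and neither overlapped between the cell types.

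Pou5f1, which encodes OCT4, was one of 6 list members with a row in the mESC table only, along with Zfp42, Dppa4, Fgf4, Utf1 and Sall4, and the values of these 6 genes are mentioned after they were seen. Pou5f1 measured 853 and 988 CPM in the mESCs. Fgf4, the growth factor that primes these cells for differentiation, measured 225 and 323 CPM, and Sall4, a zinc finger partner of the network, 273 and 314 CPM. No fold is given for these genes because their MEF value was not analysed here.

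Genes of the states that follow naive pluripotency were less uniform. Of 12 formative and primed genes, 4 were higher in mESCs and 2 in MEFs, against 22.9% and 24.4% of all genes tested. The median was -0.93. Dnmt3b, a de novo DNA methyltransferase, measured 197 and 222 CPM in mESCs and 1.29, 2.10 and 1.56 CPM in MEFs (-6.99 ± 0.32, adjusted p = 0.000167). Otx2, a homeobox factor of the epiblast, was low in both cell types, at 0.713 and 2.57 CPM in mESCs against 3.57, 0 and 0.0488 CPM in MEFs, and was not called. Lin28b, a repressor of let-7 microRNA maturation, measured 10.6 and 15.2 CPM against 0.735, 0 and 0.561 CPM (-4.86 ± 1.19, adjusted p = 0.0157). Fgf5, the growth factor gene of the primed epiblast, was the member with the largest change towards MEFs, although at a low level of 1.12, 1.63 and 1.41 CPM against 0.173 and 0.0207 CPM in mESCs (3.79 ± 0.92, adjusted p = 0.0156). The Lin28b call was lost without mESC library 1 or 2 (adjusted p = 0.0579 and 0.0833) and the Fgf5 call without mESC library 2 (adjusted p = 0.0971). The number of list genes higher in mESCs was 1 without either mESC library, and the number higher in MEFs was 1 without mESC library 2 and 4 without MEF library 2.

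Components of the LIF pathway did not follow the culture condition in 1 direction. Of 11 genes 5 were higher in MEFs and 4 in mESCs, against 24.4% and 22.9% of all genes tested. The receptor chain gene Lifr overlapped between the cell types, with 31.7 and 55.7 CPM in mESCs and 34.7, 33.9 and 22.3 CPM in MEFs. Il6st, the shared signal transducer gp130, was at 85.2 and 107 CPM in mESCs and 443, 622 and 291 CPM in MEFs (2.23 ± 0.39, adjusted p = 0.00519), and the transcription factor gene Stat3 was at 116 and 111 CPM against 239, 299 and 253 CPM (1.21 ± 0.23, adjusted p = 0.0071). Among its feedback and target genes, Socs3 overlapped, Pim1, a kinase gene induced by STAT3, was 6.24-fold higher in mESCs (-2.64 ± 0.35, adjusted p = 0.00217), and the AP-1 gene Junb was 33-fold higher in MEFs (5.04 ± 0.82, adjusted p = 0.00393). The Stat3 call was lost without mESC library 1 or 2 (adjusted p = 0.0739 and 0.0909) and the Il6st call without mESC library 1 (adjusted p = 0.0559). Without mESC library 1 the counts were 1 gene higher in MEFs and 2 in mESCs, and without mESC library 2 they were 2 and 1.

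Germline and genome defence genes, which serve meiosis, germ cell RNA regulation and the piRNA pathway that silences transposons, were transcribed in the mESCs and low in the MEFs. In the MEFs Ddx4, an RNA helicase of germ cells, measured 0.388, 1.38 and 0.439 CPM, and no other tested member passed 0.347 CPM. Of 14 genes 12 were tested and all 12 were at least 8-fold higher in mESCs, with a median log2 difference of -7.87. Dazl, an RNA-binding regulator of germ cell translation, measured 378 and 90.3 CPM in mESCs and 0.102, 0.0314 and 0.0975 CPM in MEFs (-11.45 ± 0.86, adjusted p = 0.000483). Tex19.1, which restrains retrotransposons, had the largest change, from 0.0204, 0 and 0.0244 CPM in MEFs to 238 and 167 CPM in mESCs (-13.37 ± 0.51, adjusted p = 0.000161). Asz1, a scaffold of the piRNA machinery, measured 7.65 and 1.66 CPM against 0.0816, 0.0314 and 0.0244 CPM (-6.53 ± 0.98, adjusted p = 0.00305). Tex101, a germ cell surface protein, had no read in any MEF library and was at least 63.1-fold higher in mESCs. Mael, needed for transposon silencing, was listed in the mESC table only, at 15.3 and 8.89 CPM. The mESC libraries themselves differed for these genes: the median ratio of mESC library 2 to library 1 was 0.544 over the 12 genes, where it was 1.00 over all genes tested, and for Dazl the ratio was 0.239.

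The start regions of these genes, many of which are known to be silenced by DNA methylation in somatic cells, were read from RefSeq promoter sequences on GRCm38.p6, the assembly of the mm10 build that the submitters name. The motif described is CACGTG, an E-box that reads the same on both strands and is bound by factors such as MYC, MAX and MGA. It occurred in the 250 bases before the start of 7 of the 14 germline genes (50%), against 8.12% of the 12546 tested genes with a promoter sequence. The stretches that hold it are shown because the motif was more frequent in this list than over all tested genes, each with up to 30 bases on either side and with the E-box in capitals. Hormad1 held 2 matches, and its stretch shows only the match nearer the start.
Mael, chr1:166238932-166238994, minus strand: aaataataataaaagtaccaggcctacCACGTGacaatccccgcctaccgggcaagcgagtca
Slc25a31, chr3:40708748-40708813, plus strand: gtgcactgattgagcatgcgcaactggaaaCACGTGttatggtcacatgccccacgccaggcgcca
Taf7l, chrX:134476504-134476569, minus strand: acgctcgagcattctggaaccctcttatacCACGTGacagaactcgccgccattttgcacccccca
Sycp3, chr10:88459514-88459579, plus strand: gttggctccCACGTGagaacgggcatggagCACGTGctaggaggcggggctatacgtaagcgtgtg
Hormad1, chr3:95559627-95559676, plus strand: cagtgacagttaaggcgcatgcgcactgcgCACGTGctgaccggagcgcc
Mov10l1, chr15:88982744-88982783, plus strand: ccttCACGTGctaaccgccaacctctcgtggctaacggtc
Ddx4, chr13:112652311-112652369, minus strand: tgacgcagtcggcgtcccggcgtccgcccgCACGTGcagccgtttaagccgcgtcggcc
The match is a description of letters in these windows, and the motif was chosen with results of these data known. Of these 7 genes Hormad1 had the highest mean level in mESCs, 44.7 CPM, and Sycp3, a protein of the meiotic chromosome axis, the lowest, 4.998 CPM.

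CpG dinucleotides, the target of DNA methylation, were counted in the same promoters. Of the 14 germline promoters 12 (85.7%) held 10 or more CpGs, against 68.2% of all tested genes with a promoter sequence, and the median was 15 in both sets. Genes at least 8-fold higher in MEFs had a median of 9 CpGs and those at least 8-fold higher in mESCs a median of 7. The Dazl promoter, with 20 CpGs, is shown beside that of Nanog, with 3, since both genes were on in mESCs and low in MEFs. Each sequence is the 250 bases before the start, with every CpG in capitals.
Dazl, chr17:50293621-50293870, minus strand: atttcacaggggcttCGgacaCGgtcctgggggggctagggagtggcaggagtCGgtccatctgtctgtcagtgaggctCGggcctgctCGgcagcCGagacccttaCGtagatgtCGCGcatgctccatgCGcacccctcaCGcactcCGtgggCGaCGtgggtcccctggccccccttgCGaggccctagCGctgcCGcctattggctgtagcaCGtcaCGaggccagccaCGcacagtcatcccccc
Nanog, chr6:122707239-122707488, plus strand: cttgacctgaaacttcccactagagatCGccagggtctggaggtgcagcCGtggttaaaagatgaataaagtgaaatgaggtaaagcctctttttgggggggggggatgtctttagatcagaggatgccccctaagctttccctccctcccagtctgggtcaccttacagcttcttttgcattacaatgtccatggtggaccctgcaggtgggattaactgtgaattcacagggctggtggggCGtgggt
Over 17 pluripotency genes with a promoter sequence the median was 11 CpGs. No methylation was measured in these cells here.

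Genes of the early 2-cell embryo, which few mESCs of a culture express at any time, were low but present. Of 10 genes 6 could be tested and all 6 were higher in mESCs, with a median of -8.86. Zscan4d, a telomere regulator of this state, was at 5.40 and 4.89 CPM in mESCs with no read in MEFs, at least 67.5-fold higher, and Zscan4f was at 1.91 and 1.37 CPM, also without a MEF read. The other 4 members, Zscan4c and Tcstv3 among them, were listed in the mESC table only at 0.104 to 2.43 CPM. These genes belong to families of near-identical copies, so their single values are uncertain.

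Genes that mark the primitive endoderm, the sister lineage of the epiblast, were called in both directions. Of 12 genes 8 were higher in MEFs and 2 in mESCs, against 24.4% and 22.9% of all genes tested. Gata6, the lineage factor, measured 2.27 and 1.12 CPM in mESCs and 4.49, 12.2 and 12.0 CPM in MEFs (2.49 ± 0.67, adjusted p = 0.0218), and Sox17 was at 0.655 and 0.414 CPM against 0.0612, 0 and 0 CPM (-4.35 ± 1.05, adjusted p = 0.0149). Gata4 and Sox7 were not called. The basement membrane genes carried the largest changes, with Col4a2, a collagen IV chain, 17.1-fold higher in MEFs (4.09 ± 0.54, adjusted p = 0.0021) and Lama1, the laminin chain of the early embryo, 26.1-fold higher in mESCs (-4.71 ± 0.34, adjusted p = 0.00047). The Gata6 and Sox17 calls were lost without either mESC library (adjusted p from 0.0674 to 0.148), and the Gata6 call also without MEF library 3 (adjusted p = 0.0618). The number of genes higher in MEFs was 5 without mESC library 1 and 4 without mESC library 2, and 1 gene was then higher in mESCs.

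Epithelial junction genes separated the cell types nearly as sharply as the pluripotency genes. Of 24 genes 21 were higher in mESCs, 20 of them by at least 8-fold, none was higher in MEFs, and the median was -6.42. Cdh1, which encodes E-cadherin, measured 905 and 769 CPM in mESCs and 1.51, 1.54 and 0.61 CPM in MEFs, a 687-fold difference (-9.42 ± 0.53, adjusted p = 0.00027). Epcam, an epithelial adhesion molecule, measured 99.1 and 113 CPM against 0.122, 0.0628 and 0.171 CPM (-9.74 ± 0.41, adjusted p = 0.000161). The tight junction gene Cldn6 had a single read in the MEF libraries against 49.8 and 32.8 CPM in mESCs, and was the largest change of the list (-11.85 ± 0.77, adjusted p = 0.000382). Esrp1, the splicing regulator of epithelial isoforms, was at 2.76 and 4.43 CPM against 0.0408, 0 and 0 CPM (-7.60 ± 1.04, adjusted p = 0.00233). The 3 members that were not called, Dsp, Pkp2 and Jup, named after their values were seen, encode desmosome plaque proteins and overlapped between the cell types, with Jup at 197 and 177 CPM against 129, 90.1 and 200.3 CPM.

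**Figure D2:**
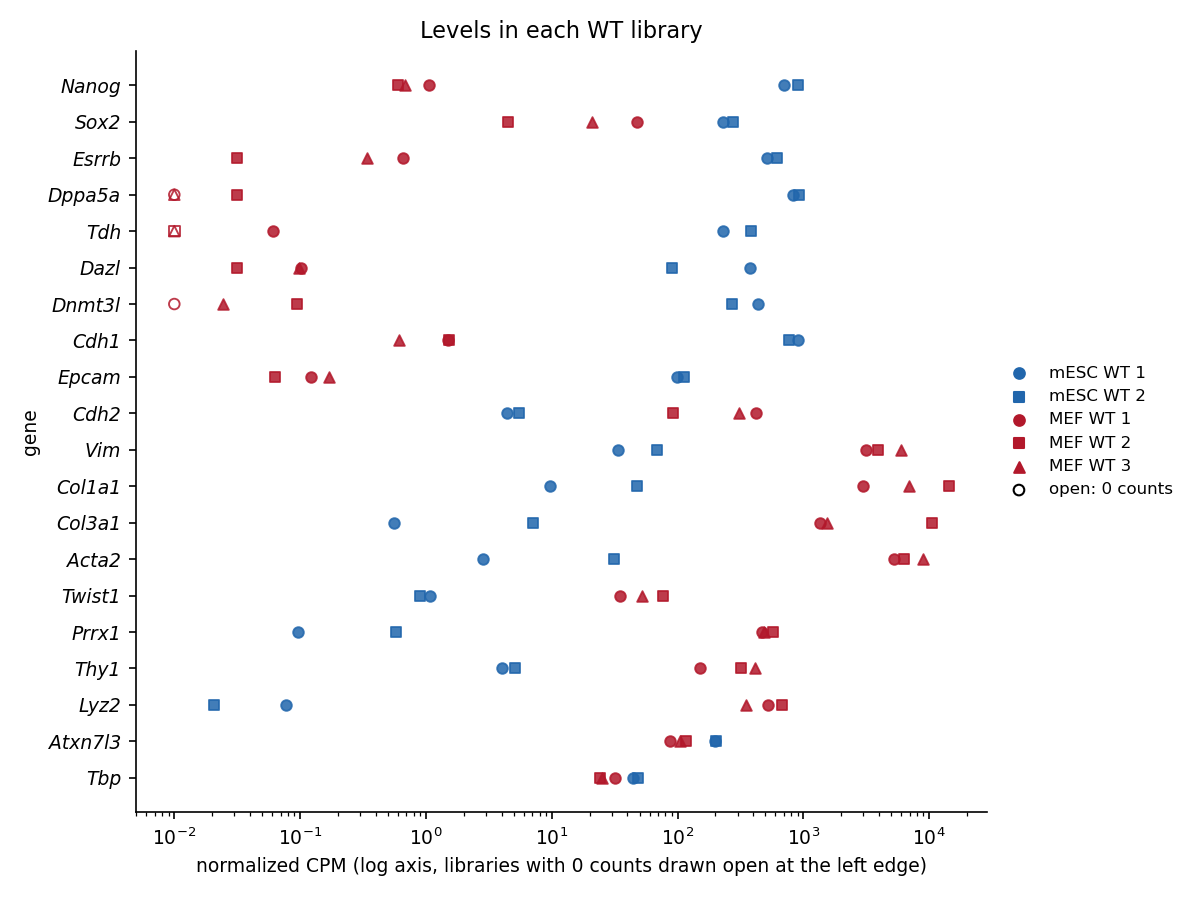
CPM (log axis) of 20 named genes in each of the 5 wild-type libraries, mESC libraries in blue and MEF libraries in red, with open symbols at the left edge for libraries with 0 counts. The colours lie apart in all 20 genes, by the least in Atxn7l3 and Tbp.

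Cadherin and filament genes showed the opposite form of adhesion in MEFs. Of 15 mesenchymal adhesion and filament genes 9 were higher in MEFs and 3 in mESCs, with a median of 2.85. Cdh2, encoding N-cadherin, measured 4.37 and 5.49 CPM in mESCs and 422, 91.5 and 308 CPM in MEFs (5.79 ± 0.77, adjusted p = 0.00216). Cdh11, a cadherin of mesenchyme, had the largest change, from 0.424 and 1.51 CPM to 577, 1277 and 649 CPM (9.75 ± 0.91, adjusted p = 0.000773). Vim, the intermediate filament vimentin, went from 33.8 and 68.7 CPM to 3133, 3906 and 5956 CPM (6.402 ± 0.65, adjusted p = 0.000932). The lamins moved in opposite directions. Lmna, the lamin of stiff differentiated nuclei, was 10.2-fold higher in MEFs (3.35 ± 0.64, adjusted p = 0.00693, and 0.0625 without mESC library 2), while Lmnb1 was 5.23-fold higher in mESCs (-2.39 ± 0.30, adjusted p = 0.00184). Without mESC library 2 the counts were 5 genes higher in MEFs and 1 in mESCs.

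Transcription factors of mesenchyme were the counterpart of the pluripotency network. Of 28 genes 27 were tested, and 26 of them were higher in MEFs, 23 by at least 8-fold, with a median of 5.93 and none higher in mESCs. Prrx1, a homeobox factor of limb and body wall mesenchyme, measured 0.0964 and 0.580 CPM in mESCs and 466, 575 and 484 CPM in MEFs. The 3 MEF values lay within a narrow range and made this 1503-fold difference the largest of the list (10.56 ± 0.87, adjusted p = 0.000579). Twist1, a basic helix-loop-helix factor that drives the mesenchymal state, measured 1.08 and 0.891 CPM against 35, 77.1 and 52.4 CPM (5.79 ± 0.49, adjusted p = 0.00063). Snai2, a repressor of E-cadherin, was at 2.00 and 1.12 CPM against 35.2, 107 and 62.9 CPM (5.45 ± 0.65, adjusted p = 0.00148), and Zeb2, another such repressor, at 0.385 and 0.518 CPM against 125, 76.4 and 115 CPM (7.86 ± 0.43, adjusted p = 0.000259). The exceptions were named after their values were seen. Osr2 overlapped, at 2.99 and 1.51 CPM against 0.633, 14 and 0.317 CPM, and Meox1 stayed under the low-count filter with 25.98 CPM in MEF library 2 and at most 0.184 CPM elsewhere.

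The genes of the interstitial matrix, the main product of fibroblasts, rose almost without exception. Of 33 genes 32 were higher in MEFs, 29 by at least 8-fold, with a median log2 difference of 7.74. Col1a1, the major chain of collagen I, measured 9.75 and 47.9 CPM in mESCs and 2991, 14280 and 6877 CPM in MEFs (8.13 ± 1.27, adjusted p = 0.00354). Col1a2, its partner chain, measured 1.41 and 31.2 CPM against 2277, 15910 and 5598 CPM (8.93 ± 1.90, adjusted p = 0.00988). Col3a1, which forms mixed fibrils with collagen I, measured 0.559 and 7.15 CPM against 1368, 10580 and 1532 CPM (10.19 ± 1.98, adjusted p = 0.00716). In all 3 collagen genes MEF library 2 stood highest and mESC library 2 stood above mESC library 1. Fibronectin, Fn1, was already abundant in mESCs, at 1367 and 2316 CPM, and was 6.84-fold higher in MEFs at 10700, 10650 and 16440 CPM (2.77 ± 0.54, adjusted p = 0.00717, and 0.0562 without mESC library 1). Fbln1, a fibulin named after its value was seen, was the only member not called.

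Lum, the keratan sulfate proteoglycan lumican that orders collagen fibrils, had the largest fold of the list, but its mean MEF level came mostly from MEF library 2. It measured 3.90, 680 and 2.10 CPM in the MEFs, with 2 reads in the mESCs (13.29 ± 4.07, adjusted p = 0.0339), and the adjusted p was 0.154 and 0.148 without mESC library 1 and 2. MEF library 2 was the highest of the MEF libraries in 26 of 33 matrix genes (78.8%), against 36.4% of all genes tested, and the median ratio of the highest to the lowest MEF library was 3.61 for matrix genes and 1.81 over all genes.

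**Figure D3:**
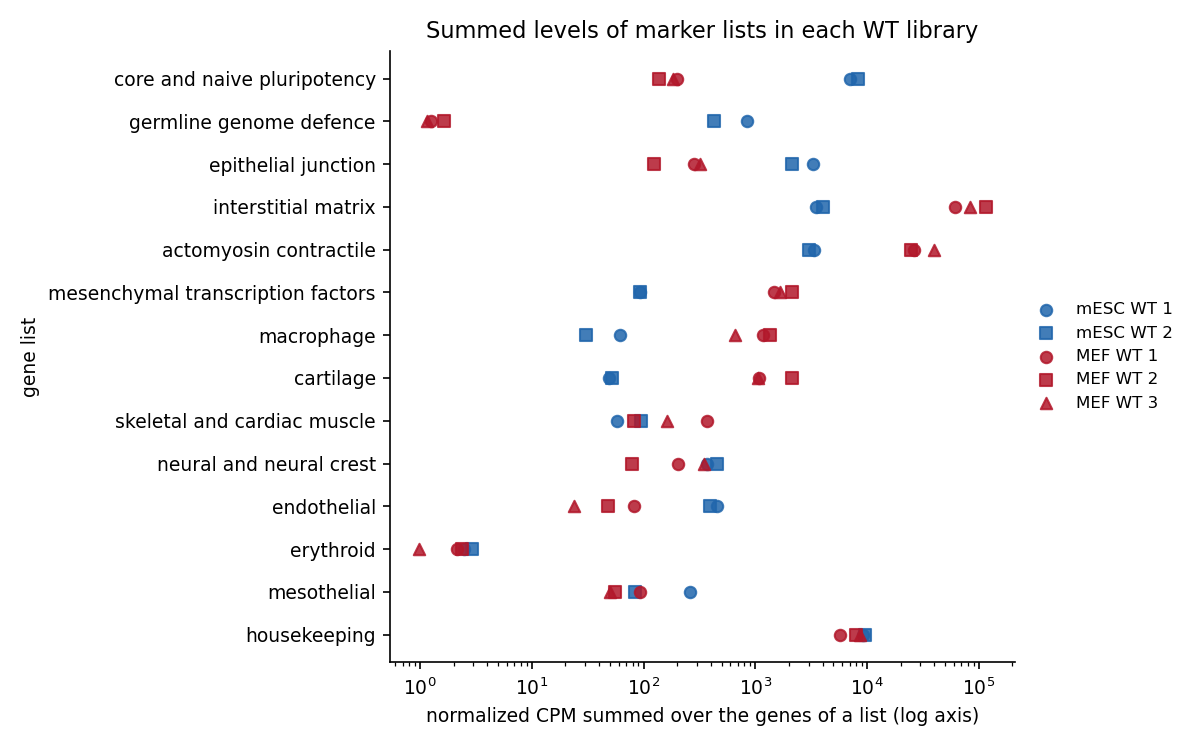
Summed CPM (log axis) of 14 gene lists in each of the 5 wild-type libraries, where a gene listed in 1 table only counts as 0 in the other cell type. Matrix genes sum to between 61510 and 116700 CPM in the MEF libraries, while the muscle sum ranges from 82.3 CPM in MEF library 2 to 373 CPM in MEF library 1.

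In the mESC libraries the fibroblast genes were low but not absent. Summed over all 33 matrix genes the mESC libraries held 3499 and 4075 CPM, most of it from Fn1, fibronectin, at 1367 and 2316 CPM and from Sparc, a collagen-binding glycoprotein, at 1740 and 1116 CPM. The median ratio of mESC library 2 to library 1 was 2.05 over the matrix genes and 1.00 over all genes tested. Of the 29 matrix genes called at least 8-fold higher in MEFs, 25 were higher in mESC library 2 than in library 1. The contractile genes did not share this order as a list, with mESC sums of 3374 and 3045 CPM over 18 genes and a median ratio of 0.952. Of the 12 contractile genes called at least 8-fold higher in MEFs, 5 were higher in mESC library 2, and the median ratio was 0.900. These 5, Cav1, Acta2, Tagln, Cnn1 and Myl9, had the largest folds of the list and did follow the order of the matrix genes. The ratio of mESC library 2 to library 1 was 11.1 for Acta2, 6.43 for Tagln, 5.58 for Cnn1 and 3.585 for Cav1. The mESC lines had been on feeder cells before the last passages, and a part of leftover feeder RNA in these values was not tested.

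Contractile and cytoskeletal genes rose together with the matrix. Of 18 genes 16 were higher in MEFs, 12 by at least 8-fold, with a median of 3.96. Acta2, smooth muscle actin, measured 2.83 and 31.5 CPM in mESCs and 5270, 6345 and 8982 CPM in MEFs (8.64 ± 1.34, adjusted p = 0.00346). Tagln, an actin bundling protein of smooth muscle, measured 2.70 and 17.3 CPM against 2808, 3018 and 4768 CPM (8.46 ± 1.1, adjusted p = 0.0020). Cnn1, calponin, measured 0.520 and 2.90 CPM against 411, 301 and 823 CPM, and Myl9, a myosin regulatory light chain, 9.23 and 13.9 CPM against 814, 1220 and 1332 CPM. MEF library 3 was the highest in all 4 genes, and MEF library 2 was the highest in only 2 of the 18 genes, unlike in the matrix list. Cav1, the coat protein of caveolae, had the largest change at 461-fold (8.85 ± 0.88, adjusted p = 0.000875). Myh9 and Smtn, named after their values were seen, were not called.

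The promoters of Col3a1 and Acta2, a matrix and a contractile gene, are shown with CpGs in capitals as the fibroblast counterpart of Dazl and Nanog. They held 0 and 4 CpGs. The Col3a1 window held a match to the letters TATAAA, whose distance from the start was not examined. Such a match, anywhere in the window and on either strand, occurred in 7.01% of all promoters examined. Among genes at least 8-fold higher in MEFs the share was 11.8%, and among those at least 8-fold higher in mESCs it was 9.34%. In the core and naive pluripotency list 3 of 17 promoters held it.
Col3a1, chr1:45311288-45311537, plus strand: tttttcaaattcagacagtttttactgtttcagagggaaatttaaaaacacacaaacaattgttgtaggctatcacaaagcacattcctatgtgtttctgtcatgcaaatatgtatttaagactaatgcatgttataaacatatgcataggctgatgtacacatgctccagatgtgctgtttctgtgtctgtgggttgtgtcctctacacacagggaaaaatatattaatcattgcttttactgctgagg
Acta2, chr19:34255374-34255623, minus strand: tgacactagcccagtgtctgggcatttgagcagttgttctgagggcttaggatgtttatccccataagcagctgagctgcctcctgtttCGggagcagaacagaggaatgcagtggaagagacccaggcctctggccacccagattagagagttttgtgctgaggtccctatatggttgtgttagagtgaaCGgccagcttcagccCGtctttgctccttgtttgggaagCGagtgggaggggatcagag
The CArG box, the site of serum response factor, was found on either strand in 3 of 17 contractile promoters (17.6%) and in 1.19% of all promoters examined.

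Surface molecules used to recognise fibroblasts were mostly higher in MEFs, in 13 of 17 genes against 1 higher in mESCs (median 4.45). The platelet-derived growth factor receptors differed in their spread: Pdgfrb measured 210, 482 and 355 CPM in MEFs and 6.22 and 4.93 CPM in mESCs (5.97 ± 0.50, adjusted p = 0.000614), while Pdgfra measured 15.1, 99.5 and 7.88 CPM against 2.97 and 2.40 CPM (3.92 ± 1.20, adjusted p = 0.0339). Thy1, a glycoprotein of many fibroblasts, was at 152, 317 and 414 CPM against 4.03 and 5.08 CPM (6.01 ± 0.57, adjusted p = 0.000797), and the hyaluronan receptor Cd44 at 673, 174 and 816 CPM against 6.46 and 5.16 CPM (6.58 ± 0.83, adjusted p = 0.00183). Fap, a protease of activated fibroblasts, had no mESC read and was at least 169.9-fold higher in MEFs. Eng, a TGF-beta co-receptor, was the member higher in mESCs, at 82.2 and 66.9 CPM against 20.3, 27.8 and 41.7 CPM (-1.32 ± 0.34, adjusted p = 0.0188). The Eng and Pdgfra calls were lost without either mESC library (adjusted p from 0.0766 to 0.168).

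Genes of TGF-beta signalling, from ligands and receptors to targets, together with targets of YAP and serum response factor, were higher in MEFs in 14 of 17 genes, with none higher in mESCs and a median of 4.94. Ctgf and Cyr61, matricellular proteins induced by YAP, measured 116 and 86.9 CPM and 126 and 94.8 CPM in mESCs, so that they were expressed there too, and were 22.2-fold and 9.92-fold higher in MEFs. Ankrd1, a muscle ankyrin repeat protein, measured 2.49 and 1.62 CPM against 56.3, 15.0 and 295 CPM (5.89 ± 1.42, adjusted p = 0.0151, and 0.0824 and 0.104 without mESC library 1 and 2). MEF library 3 was the highest and MEF library 2 the lowest in Ctgf and Ankrd1, while MEF library 2 was the highest in Col1a1, Col1a2 and Col3a1. The ligand gene Tgfb3 was 380-fold higher in MEFs (8.57 ± 0.51, adjusted p = 0.000312).

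Matrix proteases and their inhibitors rose together, in 15 of 18 genes with a median of 6.00. The gelatinase Mmp2 measured 5.01 and 11.4 CPM in mESCs and 300.3, 1009 and 398 CPM in MEFs (6.12 ± 0.81, adjusted p = 0.0021), and Mmp14, the membrane protease that activates it, 20.9 and 16.4 CPM against 367, 735 and 596 CPM (4.93 ± 0.44, adjusted p = 0.000706). The inhibitor Timp2 measured 13.1 and 10.5 CPM against 1533, 2028 and 2029 CPM (7.30 ± 0.43, adjusted p = 0.000312), and Timp3 19.12 and 21.1 CPM against 2599, 1193 and 2299 CPM (6.66 ± 0.56, adjusted p = 0.000608). Mmp3, stromelysin, had no mESC read and was at least 89.4-fold higher in MEFs.

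HOX genes, which encode the homeobox factors of position along the body axis, lie in 4 clusters in the order of their expression from head to tail. Of 39 HOX genes 38 were tested, and 28 were higher in MEFs, 2 higher in mESCs and 8 not called, with a median of 4.93. Hoxb1 had a row in the mESC table only, at 0 and 0.0414 CPM. Among genes numbered 1 to 8, 20 of 22 tested were higher in MEFs, with a median of 6.26, whereas among genes numbered 9 to 13, 8 of 16 were, with a median of 3.12. Genes numbered 1 to 8 summed to 285, 238 and 502 CPM in the MEF libraries and to 15.9 and 10.2 CPM in the mESC libraries.

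At the ends of the clusters the values were low. Hoxa13, the last gene of its cluster, measured 0.463 and 0.497 CPM in mESCs and 0.857, 7.91 and 2.15 CPM in MEFs (adjusted p = 0.0582). Hoxb13 was one of the genes higher in mESCs, at 3.74 and 2.51 CPM against 0.0204, 0.0314 and 0.0488 CPM (-6.44 ± 0.69, adjusted p = 0.00114). Hoxd1 was the other, at 0.251 and 0.228 CPM against 0.0612, 0.0314 and 0.0488 CPM (-2.24 ± 0.61, adjusted p = 0.0228), a call that was lost without mESC library 1, mESC library 2 or MEF library 3 (adjusted p = 0.174, 0.16 and 0.0554). Hoxc4 was 7.44-fold higher in MEFs (2.89 ± 0.55, adjusted p = 0.00679, and 0.0652 without mESC library 2), while Hoxc13 stood at 8.86 and 6.82 CPM in mESCs and 4.25, 0.690 and 1.73 CPM in MEFs (adjusted p = 0.087). Hoxd13 measured 1.29 and 1.28 CPM in mESCs and 1.2, 27.1 and 11.1 CPM in MEFs (adjusted p = 0.06). The highest value of any HOX gene, named after the values were seen, was Hoxb9 in MEF library 3 at 77.5 CPM.

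The MEF libraries differed along this axis. MEF library 2 was the highest of the MEF libraries in 12 of 16 genes numbered 9 to 13, with a sum of 223 CPM against 65.6 in MEF library 1 and 132 in MEF library 3. Among genes numbered 1 to 8 it was the highest in 2. In cluster B, by contrast, MEF library 3 held the largest sum, 322 CPM, against 168 and 94.9 CPM in MEF libraries 1 and 2. Of the HOX genes 11 overlap another HOX gene in the annotation, and reads in the shared stretches cannot be assigned to one of them with certainty.

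**Figure D4:**
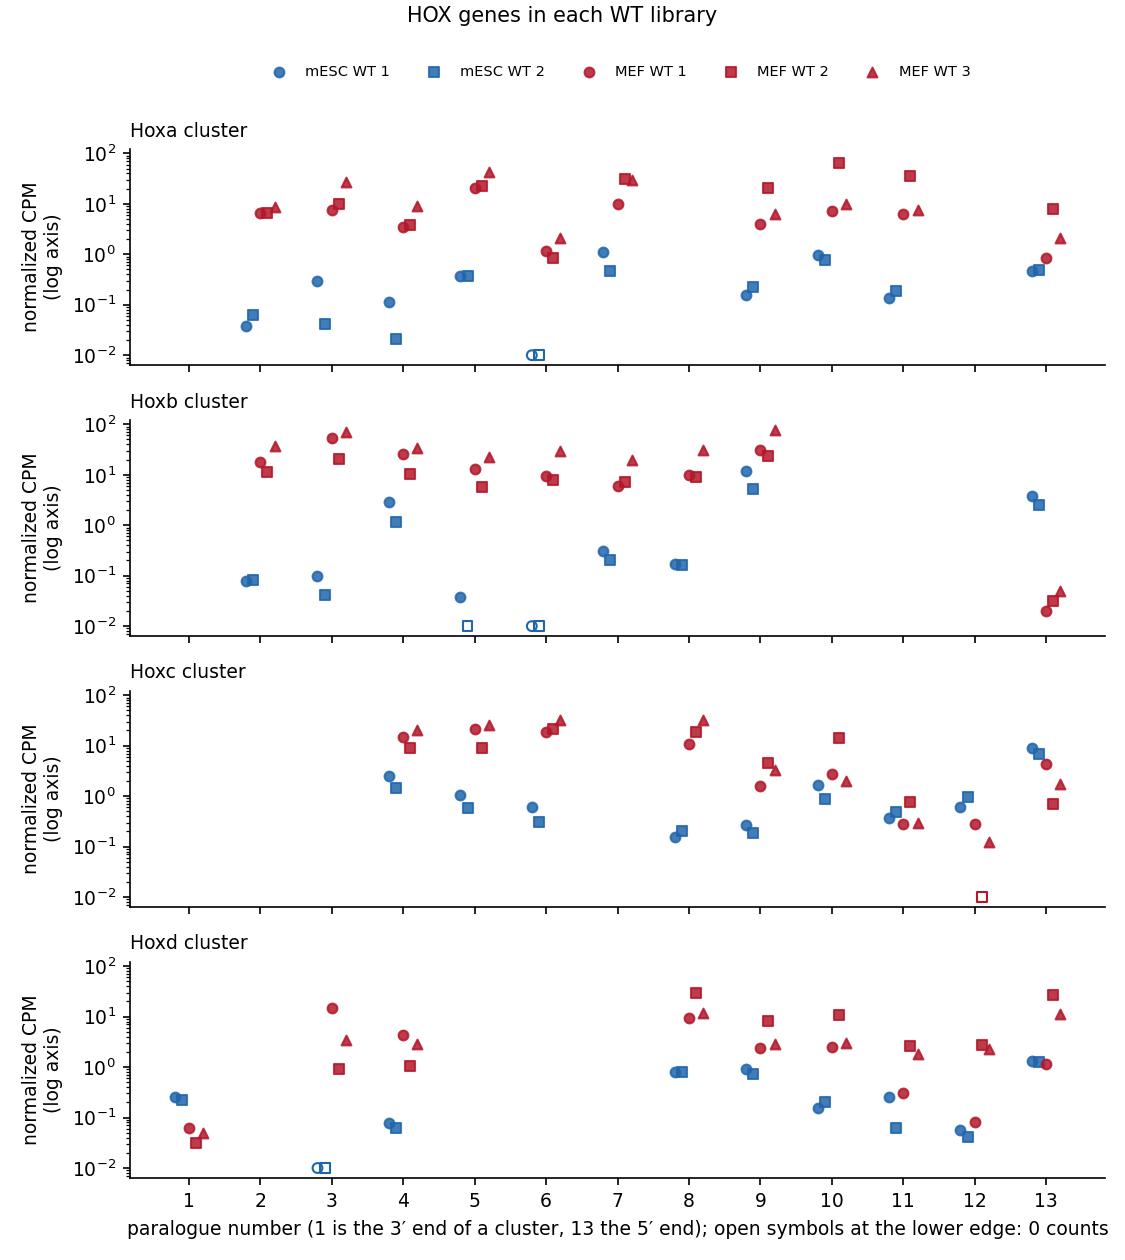
CPM (vertical axis, log scale) of tested HOX genes against gene number in each of the 4 clusters, mESC libraries in blue, MEF libraries in red and open symbols at the lower edge for 0 counts. From number 9 to 13 MEF library 2, the red square, stands above the other MEF libraries in 12 of 16 genes.

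Genes induced by ERK signalling were compared because the mESC medium contained a MEK inhibitor. Of 24 feedback and immediate early genes 18 were higher in MEFs and 1 in mESCs, with a median of 2.43. Dusp6, a phosphatase that feeds back on ERK, measured 11.2 and 6.55 CPM in mESCs and 116, 42.7 and 92.4 CPM in MEFs (3.24 ± 0.53, adjusted p = 0.0041). Spry4, another feedback inhibitor, was 29.9-fold higher (4.90 ± 0.62, adjusted p = 0.00186) and Egr1, an immediate early transcription factor, 17-fold higher (4.09 ± 0.48, adjusted p = 0.00144). Egr3 had the largest change, from 0.0771 and 0.0207 CPM to 18.5, 13.1 and 11.4 CPM (8.10 ± 0.75, adjusted p = 0.000751). Etv5, an ETS factor, was the exception at 238 and 211 CPM in mESCs against 75.0, 28.9 and 37.1 CPM in MEFs (-2.26 ± 0.42, adjusted p = 0.00628).

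WNT targets and regulators, examined because GSK3 was inhibited in the mESCs, were split. Of 19 tested genes 7 were higher in MEFs and 6 in mESCs, against 24.4% and 22.9% of all genes tested, with a median of -0.59. Axin2, the common feedback target, overlapped, at 49.9 and 63.9 CPM in mESCs and 74.4, 8.25 and 25.9 CPM in MEFs. Sp5 was at 1.25 and 1.80 CPM against 0.551, 0.0628 and 0.415 CPM and was not called, Lef1 overlapped, and Nkd1, an inhibitor of the pathway, was 23.8-fold higher in MEFs (4.57 ± 0.77, adjusted p = 0.00444). The largest changes were Cdx1, a caudal homeobox factor, at 13.2 and 17.9 CPM in mESCs against 0, 0.0314 and 0.0975 CPM in MEFs (-8.44 ± 0.97, adjusted p = 0.00136), and the secreted antagonist Dkk2, at 41.8, 39.0 and 58.4 CPM in MEFs against 0 and 0.104 CPM in mESCs (9.77 ± 0.92, adjusted p = 0.000791). The number of genes higher in mESCs was 2 without either mESC library and 3 without MEF library 3.

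Cell cycle genes were called in both directions. Among 24 cell cycle regulators, mostly of G1 and its inhibitors, 9 were higher in MEFs and 5 in mESCs, with a median of 0.53. The shares over all genes tested were 24.4% and 22.9%. Cdkn1a, the p53 target p21, measured 279 and 272 CPM in mESCs and 1502, 711 and 1533 CPM in MEFs (2.18 ± 0.43, adjusted p = 0.00783). The INK4 inhibitor genes Cdkn2a and Cdkn2b, which accumulate in cultured fibroblasts, were 9.11-fold (3.19 ± 0.50, adjusted p = 0.00352) and 39.4-fold higher (5.30 ± 0.50, adjusted p = 0.000785) in MEFs, and the imprinted inhibitor Cdkn1c 14-fold (3.81 ± 0.90, adjusted p = 0.0142). Ccnd2, cyclin D2, had the largest change, at 5.38 and 5.6 CPM against 3348, 1054 and 2139 CPM (8.63 ± 0.75, adjusted p = 0.000676). Ccnb1, cyclin B1 of mitosis, was 5.12-fold higher in mESCs (-2.36 ± 0.33, adjusted p = 0.00248). The Cdkn1a and Cdkn1c calls were lost without either mESC library (adjusted p from 0.0642 to 0.0969), and 3 genes were higher in mESCs without mESC library 2.

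Replication genes were uniformly on the mESC side. Of 20 genes of origin licensing and the replication fork 17 were higher in mESCs and none in MEFs, with a median of -2.08. The helicase subunit Mcm2 measured 326 and 489 CPM in mESCs against 53.4, 85.8 and 68.4 CPM in MEFs, and Mcm3, Mcm4 and Mcm5 were 5.83-fold, 3.74-fold and 6.62-fold higher in mESCs. Orc1, the largest subunit of the origin recognition complex, had the largest change, at 88.5 and 123 CPM against 3.74, 7.62 and 8.12 CPM (-4.02 ± 0.40, adjusted p = 0.000891). MEF library 2 was the highest MEF library in 18 of the 20 genes and mESC library 2 stood above library 1 by a median of 1.51-fold. Without mESC library 2 the number of called genes fell to 10. No cell cycle profile was measured in these libraries.

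Regulators of DNA methylation were higher in mESCs in 6 of 14 genes and higher in MEFs in 1. Dnmt3l, the cofactor of the de novo methyltransferases, went from 436 and 270 CPM in mESCs to 0, 0.0941 and 0.0244 CPM in MEFs (-13.24 ± 0.75, adjusted p = 0.000273). The 5-methylcytosine oxidase Tet1 measured 332 and 411 CPM against 14.9, 9.57 and 3.68 CPM (-5.31 ± 0.59, adjusted p = 0.00125), and the maintenance methyltransferase Dnmt1 314 and 427 CPM against 98.8, 139 and 118 CPM (-1.65 ± 0.27, adjusted p = 0.00387). Mbd2, a reader of methylated DNA, was the gene higher in MEFs, by 4.48-fold (2.16 ± 0.29, adjusted p = 0.00213), and 3 genes were higher in MEFs without MEF library 2 and 2 without MEF library 3.

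Polycomb genes, whose complexes methylate histone H3 or ubiquitylate histone H2A at silent genes, were mainly higher in mESCs, in 12 of 20 genes against 4 in MEFs, with a median of -1.47. Suz12, the core scaffold of Polycomb complex 2, measured 1053 and 964 CPM against 82.1, 53.6 and 81.1 CPM (-3.80 ± 0.30, adjusted p = 0.000525). The catalytic subunit Ezh2 was 3.14-fold higher in mESCs (-1.65 ± 0.24, adjusted p = 0.00294), its paralog Ezh1 2.93-fold (-1.55 ± 0.25, adjusted p = 0.00398) and Eed 3.26-fold (-1.71 ± 0.21, adjusted p = 0.0018). Epop, an accessory subunit of pluripotent cells, was the largest change at 284 and 275 CPM against 1.20, 2.165 and 3.61 CPM (-6.91 ± 0.51, adjusted p = 0.00047). The chromobox gene Cbx6 was 3.20-fold higher in MEFs (1.68 ± 0.41, adjusted p = 0.0161), a call lost without either mESC library (adjusted p = 0.0653 and 0.133), and the number of genes higher in MEFs was then 1 and 0.

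The writers and erasers of H2B ubiquitylation, the subject of the study, were mostly not called between the wild-type cell types. Of 15 genes 1 was higher in MEFs and 1 in mESCs, and the median was 0.29. The number higher in mESCs was 2 with relative log expression (RLE) or upper-quartile scaling or DESeq2 and 4 with library totals alone. Atxn7l3 measured 199 and 204 CPM in mESCs and 86.7, 117 and 104 CPM in MEFs, without overlap (-0.97 ± 0.23, adjusted p = 0.0136), just under the 2-fold threshold. Usp22, the main deubiquitylase of the module, measured 294 and 258 CPM against 148, 157 and 162 CPM (-0.83 ± 0.21, adjusted p = 0.0188). Eny2, the small subunit shared with mRNA export, went the other way, at 31.9 and 27.1 CPM against 73.5, 104 and 80.4 CPM (1.54 ± 0.26, adjusted p = 0.00463, and 0.0641 without mESC library 2). The alternative deubiquitylases Usp27x, at 9.52 and 8.02 CPM against 18.02, 6.90 and 13.2 CPM, and Usp51, under 2 CPM in every library, overlapped.

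Among the writers, the ubiquitin ligase gene Rnf40 measured 126 and 124 CPM in mESCs and 68.8, 74.2 and 77.0 CPM in MEFs (-0.77 ± 0.20, adjusted p = 0.0208), and its partner Rnf20 74.5 and 67.6 CPM against 108, 75.8 and 105.5 CPM (0.44 ± 0.25, adjusted p = 0.182). The conjugating enzyme genes Ube2a and Ube2b had differences of 0.65 ± 0.27 and 0.82 ± 0.22, and Wac, which links the ligase to RNA polymerase II, 0.37 ± 0.24. Ataxin 7, Atxn7, and its relatives Atxn7l1 and Atxn7l2 had differences of 0.29 ± 0.39, 0.89 ± 0.36 and 0.29 ± 0.43. Usp44, another H2B deubiquitylase, was the gene higher in mESCs, at 8.83 and 11.1 CPM against 1.102, 0.188 and 0.463 CPM (-4.07 ± 0.77, adjusted p = 0.0065), while Usp49 overlapped. Without MEF library 2 the list counted 2 genes in each direction, and without mESC library 2 none was higher in MEFs.

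Antigen presentation by MHC class I was higher in MEFs in 9 of 12 genes and in no gene higher in mESCs, with a median of 1.90. B2m, the invariant chain, measured 40.7 and 23.7 CPM in mESCs and 520, 814 and 594 CPM in MEFs (4.32 ± 0.42, adjusted p = 0.000851). The heavy chain gene H2-D1 was 3.19-fold higher (1.67 ± 0.57, adjusted p = 0.0477), a call that was lost in every leave-one-out fit except without mESC library 1 (adjusted p from 0.0514 to 0.169), and H2-K1 was not called (0.93 ± 0.35, adjusted p = 0.0645). Both belong to a family of similar sequences and their read assignment is uncertain. Psmb8, a subunit of the immunoproteasome, had the largest change at 61.3-fold (5.90 ± 0.69, adjusted p = 0.00142). The peptide transporter Tap1 was 2.60-fold higher (1.38 ± 0.31, adjusted p = 0.0119, and 0.117 without mESC library 2). Innate sensing and interferon genes were higher in MEFs in 12 of 30 tested and in mESCs in 3, with a median of 1.24. The RNA sensor Ifih1 was at 0.289 and 0.0622 CPM in mESCs and 13.1, 5.21 and 6.58 CPM in MEFs (5.53 ± 0.94, adjusted p = 0.00456), and the interferon-induced gene Ifit3b, with a single read in mESCs, had the largest change (7.27 ± 1.06, adjusted p = 0.00278). Oas1a was 7.23-fold higher in mESCs (-2.86 ± 0.63, adjusted p = 0.011, and 0.0729 and 0.0506 without mESC library 1 and 2). Irf7, an interferon regulatory factor, was not called. Without mESC library 2 the number higher in MEFs was 4 for MHC class I and 6 for the innate list, and 1 innate gene was higher in mESCs without either mESC library.

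Imprinted genes, which are expressed from one parental copy and many of which control fetal growth, were higher in MEFs in 13 of 23 tested and in mESCs in 5. Igf2, the fetal growth factor, measured 17.5 and 14.2 CPM in mESCs and 522, 5322 and 1420 CPM in MEFs (7.26 ± 1.25, adjusted p = 0.00479). H19, the non-coding RNA next to it, measured 977 and 628 CPM in mESCs and 272, 8461 and 641 CPM in MEFs and overlapped, with MEF library 2 alone above the mESCs (1.96 ± 1.42, adjusted p = 0.283). Dlk1 was 23.3-fold higher (4.54 ± 1.21, adjusted p = 0.0212) and Meg3 2.69-fold higher in MEFs (1.43 ± 0.34, adjusted p = 0.0149), and both calls were lost without either mESC library (adjusted p from 0.0673 to 0.131). Phlda2, a brake on placental growth, was 15.8-fold higher in mESCs (-3.99 ± 0.73, adjusted p = 0.00596, and 0.0506 without mESC library 2). Without either mESC library 7 imprinted genes were higher in MEFs and 3 in mESCs.

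Metabolic genes showed a few large changes among many small ones. Of 24 tested genes of glycolysis and glucose use 4 were higher in MEFs and 5 in mESCs. Both shares were below the 24.4% and 22.9% over all genes tested. Slc2a3, the high-affinity glucose transporter, measured 3070 and 2480 CPM in mESCs and 119, 11.9 and 36.4 CPM in MEFs (-5.63 ± 0.96, adjusted p = 0.0046), and the widely expressed transporter Slc2a1 and the kinase Hk2 were 5.31-fold and 7.01-fold higher in mESCs. Ldha and Pkm, at the end of glycolysis, overlapped. In the list of 1-carbon metabolism 11 of 18 genes were higher in mESCs and 1 in MEFs, with a median of -1.19. Tdh, the threonine dehydrogenase on which mESCs are known to depend, measured 232 and 383 CPM and had 3 reads over the MEF libraries (-13.47 ± 0.76, adjusted p = 0.000273), a ratio of 12370 with a counting interval from 4232 to 59980. Gldc, the glycine decarboxylase, was 31.5-fold higher in mESCs (-4.97 ± 0.76, adjusted p = 0.00324), and the mitochondrial enzyme Aldh1l2 5.85-fold higher in MEFs (2.55 ± 0.44, adjusted p = 0.00479). Gcat, the next enzyme after Tdh, was 4.56-fold higher in mESCs, a call lost without mESC library 2 or MEF library 3 (adjusted p = 0.185 and 0.0802), and Mthfd2 was not called. Without either mESC library no glucose gene was higher in MEFs, and without MEF library 1 or 3 the number was 2. In the 1-carbon list 5 genes were higher in mESCs without mESC library 2 and 7 without MEF library 3, and Aldh1l2 had an adjusted p of 0.0503 without mESC library 2.

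Genes often used as references were called in both directions. Of 14 genes 3 were higher in MEFs and 3 in mESCs, shares near the 24.4% and 22.9% over all genes tested. Tbp measured 43.9 and 48.4 CPM in mESCs and 31.6, 24.2 and 25.1 CPM in MEFs (-0.78 ± 0.24), and Hprt 164 and 201 CPM against 113, 103 and 140 CPM (-0.62 ± 0.24). Without mESC library 1 the count was 1 in each direction, and without mESC library 2 it was 0 in MEFs and 1 in mESCs. Actb, cytoplasmic actin, was 2.36-fold higher in MEFs (1.24 ± 0.41, adjusted p = 0.0437), but its adjusted p was 0.167, 0.218 and 0.113 without mESC library 1, mESC library 2 or MEF library 3. Ppia was not called, and its counts, like those of other genes with many processed copies in the genome, were low for so abundant a transcript, and its value is uncertain.

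Markers of other cell types were measured because the MEFs were grown from whole-embryo tissue. Macrophage markers were present in every MEF library: of 12 genes 7 could be tested and 6 were higher in MEFs, and the summed level of the list was 1168, 1344 and 657 CPM in MEFs against 62.2 and 30.5 CPM in mESCs. Csf1r, the growth factor receptor of macrophages, measured 182, 155 and 78.7 CPM in MEFs and 3.68 and 2.53 CPM in mESCs (5.48 ± 0.51, adjusted p = 0.000788). Lyz2, lysozyme, measured 522, 678 and 351 CPM and had 5 reads in the mESC libraries (13.27 ± 0.72, adjusted p = 0.000258). Adgre1 and Ptprc, listed in the MEF table only, were at 35.9 to 83.0 CPM and 11.4 to 25.4 CPM. Cd68 overlapped between the cell types. The part of macrophages in the MHC and interferon values was not tested.

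Endothelial and blood cells were not prominent in the MEFs. Cdh5, the defining cadherin of endothelium, measured 0.306, 0.282 and 0.341 CPM in MEFs, and the erythroid list summed to 0.975 to 2.35 CPM. Kdr, a receptor that also marks mesoderm, was at 75.7, 3.73 and 15.7 CPM in MEFs (5.71 ± 1.42, adjusted p = 0.017, and 0.0888 and 0.111 without mESC library 1 and 2). Pecam1, an endothelial adhesion molecule, was at 398 and 334 CPM in mESCs against 0.0314 to 0.366 CPM in MEFs (-10.48 ± 0.71, adjusted p = 0.000405), and Tek was 23.2-fold higher in mESCs as well. Without either mESC library no endothelial gene was higher in MEFs, where the full set gave 2 of 11.

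Muscle, nerve and cartilage genes were present in MEFs at levels that differed between the libraries. Of 13 tested muscle genes 6 were higher in MEFs and none in mESCs. Myh8, a fetal myosin, measured 91.8, 3.70 and 18.7 CPM in MEFs against 0.0771 and 0.186 CPM in mESCs (8.16 ± 1.73, adjusted p = 0.00976, and 0.0705 and 0.0642 without mESC library 1 and 2), with MEF library 1 the highest. Myod1, the master regulator of muscle, stayed at 1.449 CPM or less. Of 14 neural and neural crest genes 5 were higher in MEFs and 4 in mESCs, against 24.4% and 22.9% of all genes tested. Sox10, the neural crest and glial factor, measured 7.37, 4.99 and 26.9 CPM against 0.0578 and 0.269 CPM (6.31 ± 1.21, adjusted p = 0.00684), with MEF library 3 the highest. Elavl3, a neuronal RNA-binding protein, was 17.9-fold higher in mESCs (-4.03 ± 1.23, adjusted p = 0.0331), a call lost without either mESC library or MEF library 3 (adjusted p from 0.0866 to 0.153). Without mESC library 2 the counts were 2 muscle genes and 1 neural gene higher in MEFs and 1 neural gene higher in mESCs, and without mESC library 1 the neural counts were 1 and 2.

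Of 12 tested cartilage genes 7 were higher in MEFs and none in mESCs. Col2a1, the collagen of cartilage, measured 172, 624 and 509 CPM in MEFs against 4.51 and 7.17 CPM in mESCs (6.22 ± 0.73, adjusted p = 0.00143). Sox9, which activates it, measured 16.7, 39.5 and 14.6 CPM against 0.212 and 0.249 CPM (6.66 ± 0.71, adjusted p = 0.00114). Acan, aggrecan, was at 42.2 CPM in MEF library 2, at 0.857 and 1.07 CPM in the other MEF libraries and at 13.9 and 18.3 CPM in mESCs. MEF library 2 was the highest MEF library in 11 of the 12 genes, and the median ratio of the highest to the lowest MEF library was 9.90, against 1.81 over all genes. Of 8 mesothelial genes 4 were higher in MEFs and 2 in mESCs, against 24.4% and 22.9% of all genes tested. The 4, named after their values were seen, were low in the MEFs apart from Gpm6a in library 1: Upk1b measured 4.78, 8.001 and 8.61 CPM, Upk3b 4.25, 18.3 and 4.19 CPM, Gpm6a 73.3, 6.46 and 12.4 CPM and Tcf21 0.286, 1.04 and 0.512 CPM, and none passed 1.451 CPM in an mESC library. Msln, mesothelin, was 23-fold higher in mESCs (-4.53 ± 0.67, adjusted p = 0.00297), and Wt1 was at most 3.01 CPM in any library. Without either mESC library 4 cartilage genes were higher in MEFs. Without mESC library 2, 2 mesothelial genes were higher in MEFs, and without mESC library 1, 1 was higher in mESCs.

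Ranked by fold between the group means, the protein-coding genes furthest towards MEFs among those without overlap were Ptn, Lyz2, Mgp, Cp, Cxcl12, Aspn, Lum and Tnmd. Most encode secreted proteins. Ptn, the growth factor pleiotrophin, had 3 reads in the mESC libraries and a mean of 905 ± 1245 CPM (SD, n = 3) in MEFs, so that the spread exceeded the mean (14.75 ± 2.35, adjusted p = 0.00376). Mgp, an inhibitor of calcification, was 7852-fold higher (12.93 ± 1.81, adjusted p = 0.00247) and Cxcl12, the chemokine of stromal cells, 4750-fold higher (12.20 ± 1.60, adjusted p = 0.00206). Lyz2 measured 517 ± 164 CPM (SD, n = 3).

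The genes furthest towards mESCs were Dppa5a, Calcoco2, L1td1, Dnmt3l, Tdgf1, Tdh, Trap1a and Dazl. Calcoco2, an autophagy receptor, measured 596 and 414 CPM in mESCs and had no read in the 3 MEF libraries, which made it at least 6630-fold higher in mESCs (-17.45 ± 0.60, adjusted p = 0.000402). L1td1, an RNA-binding protein derived from a LINE-1 element, had 2 MEF reads against 409 and 510 CPM in mESCs (-14.52 ± 0.75, adjusted p = 0.000219). Tdgf1, the Nodal co-receptor Cripto, measured 227 and 475 CPM in mESCs and 4 reads in MEFs (-13.22 ± 0.99, adjusted p = 0.000479), and the X-linked tumour antigen gene Trap1a 246 CPM in both mESC libraries and 3 reads in MEFs (-13.15 ± 0.70, adjusted p = 0.000249).

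Per kilobase of transcript, the most abundant genes among those at least 8-fold higher in MEFs were Col1a1, Col3a1, Fstl1, Thbs1 and Col1a2, with mean levels of 18810, 6098, 4675, 4409 and 3898 CPM per kb. Thbs1, the adhesive glycoprotein thrombospondin 1, measured 15390, 9816 and 17830 CPM in MEFs against 76.8 and 70.1 CPM in mESCs (7.61 ± 0.66, adjusted p = 0.000676). Among genes at least 8-fold higher in mESCs the most abundant were Slc2a3, Asns, Hsp90aa1, Suz12 and Parp1, at 4834, 2257, 2115, 1598 and 1571 CPM per kb. Asns, asparagine synthetase, measured 1278 and 1286 CPM in mESCs (-3.18 ± 0.35, adjusted p = 0.00127), Hsp90aa1, an inducible chaperone, 1438 and 1096 CPM (-3.54 ± 0.40, adjusted p = 0.00131), and Parp1, a DNA break sensor, 776 and 973 CPM (-3.34 ± 0.27, adjusted p = 0.000578).

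Genes were also grouped by 30 broader annotation terms, of which only some are given here. Over all genes tested, 24.4% were higher in MEFs and 22.9% in mESCs. Terms near these shares included regulation of transcription, with 21.4% and 25.6%, and metabolic process, with 20.7% and 24.0%. Of 428 tested genes annotated to cell adhesion 235 were higher in MEFs and 52 in mESCs, with a median of 2.10, and of 92 annotated to extracellular matrix organization 54 and 11, with a median of 2.49. Axon guidance genes were higher in MEFs in 69 of 123 and in mESCs in 10. On the mESC side, DNA repair counted 138 of 308 genes against 15 in MEFs, DNA replication 61 of 115 against 11, rRNA processing 52 of 122 against 5, and the meiotic cell cycle 53 of 93 against 2. Of 17 genes annotated to DNA methylation in gamete generation 14 were higher in mESCs and 1 in MEFs, with a median of -5.18. By gene class, 340 of 911 processed pseudogenes were higher in mESCs and 15 in MEFs, and 38 of 63 snoRNA genes were higher in mESCs and none in MEFs. Antisense genes leaned to the MEFs, with 160 of 417 against 70. Pseudogene reads may derive from their parent genes, and how strand was used in the counting was not given in the sources used here.

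The Atxn7l3-/- libraries gave a second, separate set of 3 MEF and 3 mESC libraries for the same contrast. The targeted gene Atxn7l3, per library total and without further scaling, measured 3.71, 1.85 and 0.964 CPM in the Atxn7l3-/- mESCs against 228 and 222 CPM in wild-type mESCs. In the Atxn7l3-/- MEFs it measured 49.3, 47.2 and 63.97 CPM against 85.6, 108 and 91.1 CPM in wild-type MEFs. Reads of the gene were thus nearly gone in the mESC lines and only lower in the MEFs. By Western blot the paper could not detect the ATXN7L3 protein in Atxn7l3-/- cells of either type. Whether the remaining MEF reads come from an intact transcript was not tested. In the Atxn7l3-/- libraries, 4416 of 16540 genes (26.7%) were higher in MEFs and 4516 (27.3%) in mESCs. Of the 8695 wild-type calls 5327 (61.3%) were made in the same direction in the Atxn7l3-/- libraries, 115 in the opposite direction and 2062 were tested but not called. By direction, the shared calls were 61.8% of the wild-type and 62.7% of the Atxn7l3-/- calls for MEFs, and 60.7% and 56.6% for mESCs. All 19 called pluripotency genes, 10 of 12 germline genes, 28 of 32 matrix genes and all 16 contractile genes were called the same way in the Atxn7l3-/- libraries. Of the remaining germline genes, Ddx4 was called higher in MEFs there (log2 difference 4.05) and Asz1 was not tested. Other lists shared fewer calls: 0 of 6 reference genes, 2 of 7 endothelial, 2 of 6 muscle and 4 of 9 MHC class I genes. None of the 6 called 2-cell genes was tested there. The difference between the cell types itself differed between genotypes in 2205 of 19312 genes (11.4%) at an adjusted p of 0.05 or less for the interaction.

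Of the 18 contractile genes 3 passed edgeR's test of the interaction, against 11.4% of all genes tested for it. In these 3 the wild-type contrast was the larger. Acta2 differed by 8.64 on the log2 scale in wild-type and by 4.32 in Atxn7l3-/- cells (adjusted p = 0.043), Tagln by 8.46 and 4.69 (adjusted p = 0.039) and Cnn1 by 8.23 and 2.75 (adjusted p = 0.028), while Mylk, myosin light chain kinase, differed by 6.34 and 7.95 (adjusted p = 0.288). For Hoxa13 and Hoxd13, which were not called in the wild-type contrast, edgeR's interaction test gave a difference between genotypes, with Hoxa13 at 2.91 in wild-type and -3.89 in Atxn7l3-/- cells (adjusted p = 0.03) and Hoxd13 at 3.34 and -5.85 (adjusted p = 0.013). The adjusted interaction p was 0.66 for Nanog, 0.161 for Cdh1, 0.0953 for Prrx1 and 0.326 for Col3a1.

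**Figure D5:**
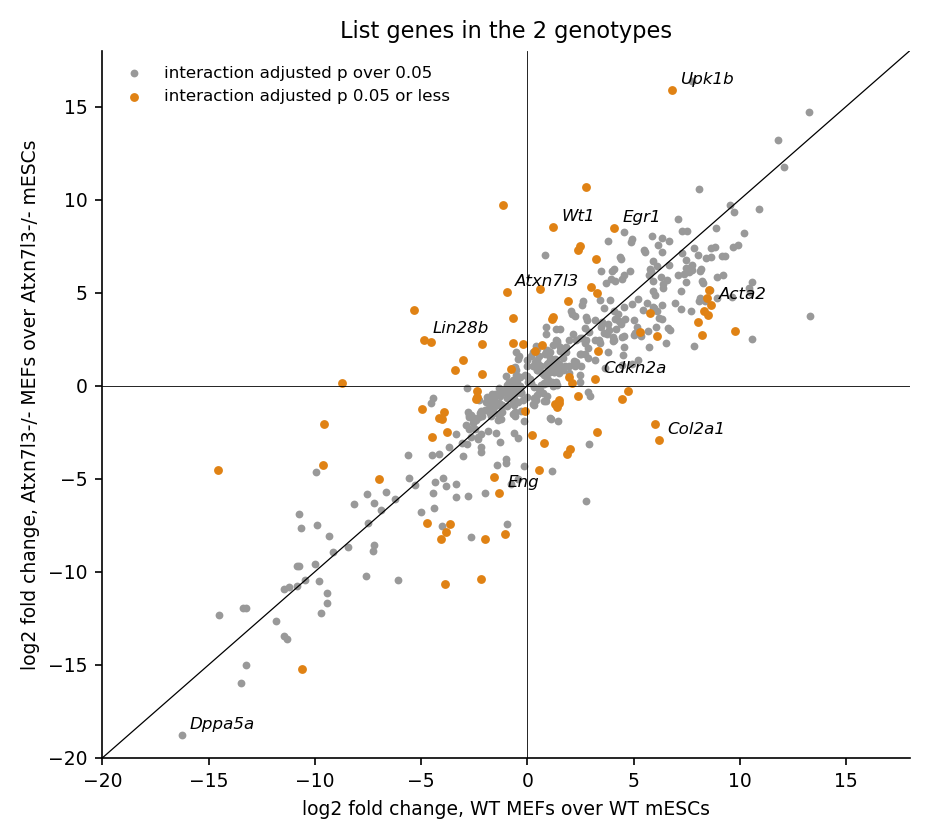
Log2 difference (MEF over mESC) in the wild-type libraries (horizontal axis) against that in the Atxn7l3-/- libraries (vertical axis) for 524 list genes, with the 84 genes of adjusted interaction p of 0.05 or less marked. Acta2 at 8.64 and 4.32 lies under the diagonal, the line of equal differences, and Lin28b at -4.86 and 2.47 lies on opposite sides of 0.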

How the data were processed

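RNA was measured by polyA-selected, stranded RNA sequencing. The authors deposited, for each cell type, 1 table of raw counts per gene, made according to the submitters' processing notes with cutadapt 1.10, STAR 2.5.3a and HTSeq 0.6.1p1 on mm10. The annotation release and the strand setting of counting were not given in the sources used here. The tables also hold normalised counts and the authors' fold changes and p-values between genotypes, which were not used, and annotation columns of other kinds deposited by the authors, from which gene names, classes, terms and lengths were taken. The authors left out 1 wild-type mESC dataset, which was not analysed here.

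Counts were joined on the gene identifier, filtered with filterByExpr, scaled by TMM and tested in 1 fit of the 5 wild-type libraries (edgeR 4.0.16, R 4.3.3). Genes were called at an adjusted p of 0.05 or less and a change of at least 2-fold. The scripts were tested on simulated data with less spread between libraries than in these data. That test was a check of the code and not of error rates in these libraries. p-values measure the spread between these libraries. Named genes were the first 4 and the largest called member in each direction of each list, the 8 largest folds and the 5 most abundant genes per kilobase in each direction, all H2B genes and the ends of the HOX clusters. Some genes that this rule names are not reported here. Members and lists were chosen with earlier results of these data known. Folds against a group with no read use a floor of 3 counts per library, and intervals for 1 to 3 reads cover counting error only, with a confidence level of 95%. Alternatives were another normalization, filter, test, fit or library set, and DESeq2 1.42.0. The Atxn7l3-/- contrast shares no library with the wild-type contrast.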

Additional observations from a re-analysis of the deposited data

Results flagged for a closer look

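The log2 difference between MEFs and mESCs differed between wild-type and Atxn7l3-/- libraries in 40 of 197 named genes, by the interaction in edgeR at an adjusted p of 0.05 or less, against 11.4% of all 19312 genes tested. Many named genes were chosen by their wild-type difference, and the deleted gene is among them. The named genes therefore cannot be compared fairly with all genes. Values are the wild-type minus the Atxn7l3-/- log2 difference, and p-values cover the spread between these libraries only. Atxn7l3 itself, the deleted gene, gave -5.97, from -0.97 in wild-type and 5.02 in Atxn7l3-/- libraries. Atxn7l3-/- MEFs still held 47.2 to 63.97 CPM of its reads, and Atxn7l3-/- mESCs at most 3.71 CPM. Lin28b gave -7.30, from -4.86 to 2.47, Col2a1 gave 9.18, from 6.22 to -2.94, and Upk1b gave -9.02, from 6.81 to 15.87.

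The wild-type value was also the higher one in Esrrb (4.69), Lama1 (2.69), Twist1 (1.92), Eng (4.50), Acta2 (4.37), Tagln (3.81), Cnn1 (5.52), Cyr61 (1.51), Tgfb3 (3.45), Dkk2 (6.84), Cdkn2a (2.84), Cdkn2b (2.46), Usp44 (4.19), Tap1 (2.54), Sox10 (8.89), Foxd3 (8.30), Col11a1 (4.33), Tnmd (9.77), Hoxa13 (6.83) and Hoxd13 (9.23). It was the lower one in Dnmt3b (-1.93), Gata6 (-4.98), Gata4 (-4.24), Lmnb1 (-2.09), Dusp6 (-3.54), Egr1 (-4.33), Ccnb1 (-1.71), Orc1 (-2.22), Suz12 (-1.30), Wac (-1.47), Ddx58 (-2.37), Gldc (-3.67), Wt1 (-7.33), Msln (-6.83), Upk3b (-7.87) and Hoxd1 (-6.94). Sox10 and Hoxd1 did not pass the low-count filter of the Atxn7l3-/- contrast alone, so their interaction rests on the joint fit. Groups of 2 and 3 libraries were too small to look for a single outlying library.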

How the results depend on the processing

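The numbers of genes called were 4482 higher in MEFs and 4213 in mESCs. With at least 10 counts required in every library they were 2957 and 2731, since this filter removes genes that are off in one cell type, and in a test against a 2-fold change 2619 were higher in mESCs. Leaving out each library in turn gave 1844 to 4774 genes higher in MEFs, 1914 to 4547 in mESCs, 1371 to 2366 at least 8-fold higher in MEFs and 1219 to 1937 in mESCs, with the lowest counts when an mESC library was left out. The lone mESC library is then assumed to vary like the MEF libraries. With the replicate number as a block, 3567 and 3067 genes were called. Same-numbered libraries come from different animals, and the labels name nothing else that they share. Their deviations from the group means correlated at 0.103 and 0.102. The deviations of the 2 mESC libraries mirror each other, so the crossed pairs gave -0.103 and -0.102. These values therefore cannot show whether a batch was shared. Scaling by library totals alone moved the median of all genes by -0.265 on the log2 scale and gave 3814 and 5063 genes.

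Of 2492 values of named genes under alternatives, 2340 kept direction and side of the threshold, 94 lost a call, 35 gained one and 23 changed sign. Without mESC library 2 the log2 difference was 0.753 for Otx2, 0.0787 for Lef1, 0.334 for Usp51, 0.0714 for Acan, 0.108 for Ddx3y and 0.278 for Uty. Without mESC library 1 it was -0.418 for Ldha and 0.338 for Cd68, and without MEF library 1 it was 0.423 for Acan. Without MEF library 2 it was 0.159 for Otx2, 0.197 for Usp51, -0.805 for H19 and -0.0409 for Ldha. Without MEF library 3 it was 0.149 for Otx2, 0.173 for Usp51, 0.424 for Acan, -5.29 for Xist, 0.0537 for Ddx3y and 0.207 for Uty. With the block it was 0.0214 for Cd68, -5.42 for Xist and 0.102 for Uty, and with library totals -0.147 for Ldha. At the other end of the same range stood the log2 fold change of Otx2 (-5.79), the log2 fold change of Lef1 (-1.07), the log2 fold change of Usp51 (-1.19), the log2 fold change of H19 (2.5), the log2 fold change of Ldha (0.901), the log2 fold change of Cd68 (-0.771), the log2 fold change of Acan (-4.05), the log2 fold change of Xist (3.51), the log2 fold change of Ddx3y (-1.95) and the log2 fold change of Uty (-1.8). Apart from Xist, called without MEF library 3 and with the block, none of the sign changes gave a call, and the cause was not tested.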
